A study of Mus musculus with 8 samples.

Results

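The type I interferon response genes described here are 47 genes: the subunits of the type I interferon receptor, the factors that carry its signal, and genes that interferon is known to induce. They come from a list of symbols with no threshold on a measured level, but the list was drawn up with earlier results of these data known, and all 47 were found among the 37991 gene IDs of the count table. RNA was measured by RNA-seq in B-cell biased-lymphoid progenitors (BLPs), a bone marrow progenitor of the B lineage, sorted by flow cytometry after enrichment of cells that carry c-Kit. The group H2afy_KO holds 4 pools from H2afy-/- mice and the group H2afy_WT holds 4 pools from H2afy+/+ mice, aged 5 to 12 weeks, with no treatment named for either group. H2afy encodes macroH2A1, a histone variant, and the comparison addresses what its loss does to the transcripts of these progenitors. Each pool held RNA of 5000 to 15000 cells from 2 to 3 mice, and the sources used here do not say which part of H2afy the allele lacks or whether pools share mice. P-values set the difference between genotypes against the spread between pools, not between single mice.

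Type I interferons, the interferon-alpha family and interferon-beta, bind a receptor made of IFNAR1 and IFNAR2. The kinases JAK1 and TYK2 then phosphorylate STAT proteins, STAT2 among them, and STAT2 joins IRF9 in a complex that binds interferon-stimulated response elements in the promoters of target genes. The induced proteins sense viral nucleic acid, block viral replication, help present antigen, and either feed the response or dampen it. Haematopoietic progenitors and B-lineage cells carry the receptor, and many of the target genes are transcribed at a basal level without infection.

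Most members had higher levels in the H2afy_KO pools, by small amounts, and none passed the test over all genes. Of the 47 members, 46 had enough counts to be tested; Psmb9 did not, and is described with the antigen presentation genes. In the edgeR quasi-likelihood test with adjustment over 13722 tested genes, 0 members were called higher and 0 lower, as were 0.0% of all tested genes in either direction. A positive log2 fold change (H2afy_KO over H2afy_WT) was found for 37 of the 46 members, or 80.4%, beside 50.1% of all tested genes; RLE and upper-quartile scaling also gave 37, and over all settings tried the number ran from 34 to 39. The median log2 fold change was 0.20 over the members and 0.00 over all tested genes. An unadjusted edgeR p under 0.05 with a higher level in H2afy_KO was found for 12 members (26.1%, against 3.88% of all tested genes), and with a lower level for 0 members (3.69% of all tested genes). In 8 members every H2afy_KO pool lay above every H2afy_WT pool (17.4%, against 2.18% of all tested genes), and the reverse held for 0 members (2.35% of all tested genes). The 8 were Ifnar2, Irf7, Isg15, Mx1, Rsad2, Ifitm3, Sp100 and Ifi27l2a.

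**Figure D1:**
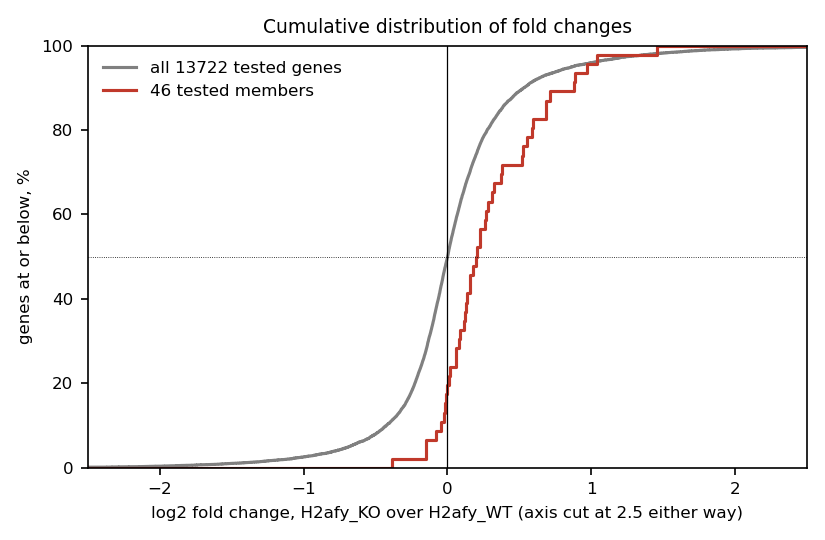
Cumulative distribution of log2 fold changes (H2afy_KO over H2afy_WT, x axis) as the percentage of genes at or below each value (y axis), for the 46 tested members and all 13722 tested genes. The member curve lies to the right of the curve of all genes over most of its range, with medians of 0.20 and 0.00.

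The number called depended on the tool. DESeq2 with the same genes called 3 members higher, Ifi27l2a (adjusted p = 0.00451), Mx1 (adjusted p = 0.0110) and Isg15 (adjusted p = 0.0428), beside 0.343% of all tested genes. With the replicate number of the labels as a block, edgeR called 0 members higher (0.0292% of all tested genes) and 0 lower (0.0802%), and DESeq2 called 8 higher (1.95% of all tested genes) and 1 lower (1.84%). The 8 were Ifnar2, Stat2, Irf7, Isg15, Mx1, Samhd1, Ifitm1 and Ifi27l2a, and the 1 was Ifitm2. Between same-numbered pools, 15 members were higher in H2afy_KO in all 4 pairs (32.6%, against 10.1% of all tested genes), and Ifitm2 was lower in all 4 (10.9% of all tested genes).

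Total counts were similar across the pools, at 21330088 to 29029765. Library sizes scaled by TMM factors differed more, from 16486436 in H2afy_KO 3 to 31497658 in H2afy_KO 1. H2afy itself had 1423 to 1953 CPM (counts relative to library size, scaled by TMM factors) in the H2afy_KO pools and 1981 to 2567 CPM in the H2afy_WT pools, a log2 fold change of -0.45 (SE 0.15, edgeR adjusted p = 0.504), and with the deleted part unknown this level is no check of the genotypes. The markers of lymphoid progenitors were all present, with summed levels of 6371 to 7925 CPM in H2afy_KO and 8167 to 9925 CPM in H2afy_WT, which do not overlap. The separation of the sums rests on Dntt: without it they were 2715 to 3560 CPM and 3157 to 4019 CPM, which overlap. Of the 8 markers, Flt3 (0.06) and Ly6d (0.36) had a positive log2 fold change and 6 a negative one. An unadjusted edgeR p under 0.05 with a lower level was found for 5 of the 8 (3.69% of all tested genes). By single gene, 3 were separate and lower in H2afy_KO (2.35% of all tested genes): Il7r (-0.32), Rag1 (-1.65) and Ebf1 (-1.41), named after their values were seen. Immunoglobulin genes took 0.402%, 10.0%, 39.0% and 33.4% of all counts across H2afy_KO pools 1 to 4, against 3.47%, 0.948%, 19.5% and 12.9% across H2afy_WT pools 1 to 4, so H2afy_KO 3 and 4 stand apart. Neutrophil genes summed to 925 to 3132 CPM in H2afy_KO and 1393 to 9691 CPM in H2afy_WT, with the highest sums in H2afy_WT 1 and 4. In pooled cells, fewer cells of a type and less RNA per cell cannot be told apart.

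Promoter sequence was lacking in the RefSeq table (GRCm38.p6) for 11 members: Dhx58, Ifi27l2a, Mx1, Mx2, Nlrc5, Oas2, Parp14, Parp9, Rtp4, Usp18 and Zbp1. Mx1 and Ifi27l2a, both with separate groups, therefore fall outside the splits by motif. For 36 of the 47 members sequence was available, from 250 bases before to 50 after each start. A motif of the interferon-stimulated response element type, GAAA and GAAA with any 2 bases between them on either strand, was found in 13 of these 36 members (36.1%), against 3.99% of the 27025 genes in the table. The 13 were Ddx58, Eif2ak2, Ifih1, Ifit1, Ifit3, Ifitm2, Ifitm3, Irf2, Isg15, Oas1a, Oas3, Rsad2 and Stat2. A motif of the gamma-activated site type, TTC and GAA with any 3 bases between them, was also found in 13 of the 36 members, against 9.55% of genes; Eif2ak2, Ifitm3, Irf2 and Oas1a held both motifs. The 13 members with the response-element motif had a median log2 fold change of 0.27, with 3 of 13 separated between genotypes. The 22 tested members without it had a median of 0.19, with 3 of 22 separated (2.18% of all tested genes). An unadjusted edgeR p under 0.05 with a higher level was found for 4 of 13 with it and 6 of 22 without it (3.88% of all tested genes). The split by the other motif went the other way. Members that hold it had a median of 0.11, 2 of 13 separated and 2 of 13 with such a p. Those that do not had 0.28, 4 of 22 separated and 8 of 22 with such a p (2.18% and 3.88% of all tested genes). A match is a description of these letters, and the counts do not show which proteins bound there.

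The stretches below come from 7 members, in the order of their difference between genotypes: the 4 members with the motif whose unadjusted edgeR p was under 0.05 (Rsad2, Isg15, Ifit1 and Stat2), then Oas3 and Oas1a, which carry the motif and differed little, and Ifitm2, which carries it and was lower in H2afy_KO. They are printed 5′ to 3′ on the gene's strand, with the letters of the motif, or of its reverse complement with TTTC on both sides, in capitals. Rsad2 is at chr12:26456518-26456617 (minus strand), Isg15 at chr4:156200830-156200941 (minus), Ifit1 at chr19:34640740-34640858 (plus), Stat2 at chr10:128270248-128270330 (plus), Oas3 at chr5:120777680-120777779 (minus), Oas1a at chr5:120907526-120907590 (minus) and Ifitm2 at chr7:140955962-140956052 (minus), all in GRCm38.p6.
Rsad2: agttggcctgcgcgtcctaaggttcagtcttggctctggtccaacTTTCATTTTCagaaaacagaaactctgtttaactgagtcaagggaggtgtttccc
Isg15: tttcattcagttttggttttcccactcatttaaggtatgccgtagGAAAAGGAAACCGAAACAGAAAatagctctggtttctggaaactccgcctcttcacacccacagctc
Ifit1: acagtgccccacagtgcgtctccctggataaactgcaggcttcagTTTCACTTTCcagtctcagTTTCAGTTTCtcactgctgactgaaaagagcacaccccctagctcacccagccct
Stat2: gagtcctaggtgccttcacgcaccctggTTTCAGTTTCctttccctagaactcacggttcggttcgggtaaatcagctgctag
Oas3: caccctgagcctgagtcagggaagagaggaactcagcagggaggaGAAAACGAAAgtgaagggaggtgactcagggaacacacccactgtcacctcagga
Oas1a: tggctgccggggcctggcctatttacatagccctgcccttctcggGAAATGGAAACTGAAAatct
Ifitm2: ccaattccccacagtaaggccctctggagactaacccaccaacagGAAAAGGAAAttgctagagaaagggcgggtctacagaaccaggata

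The Isg15 stretch holds 3 overlapping matches between 78 and 57 bases before the start, Ifit1 holds 2 matches between 104 and 76 bases before it, and Oas1a holds 2 overlapping matches between 20 and 5 bases before it. Rsad2, Stat2, Oas3 and Ifitm2 hold 1 match each. The log2 fold changes of these 7 genes ran from 0.72 for Rsad2 through 0.08 for Oas1a to -0.39 for Ifitm2, so members that hold the motif differed in both size and sign.

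**Figure D2:**
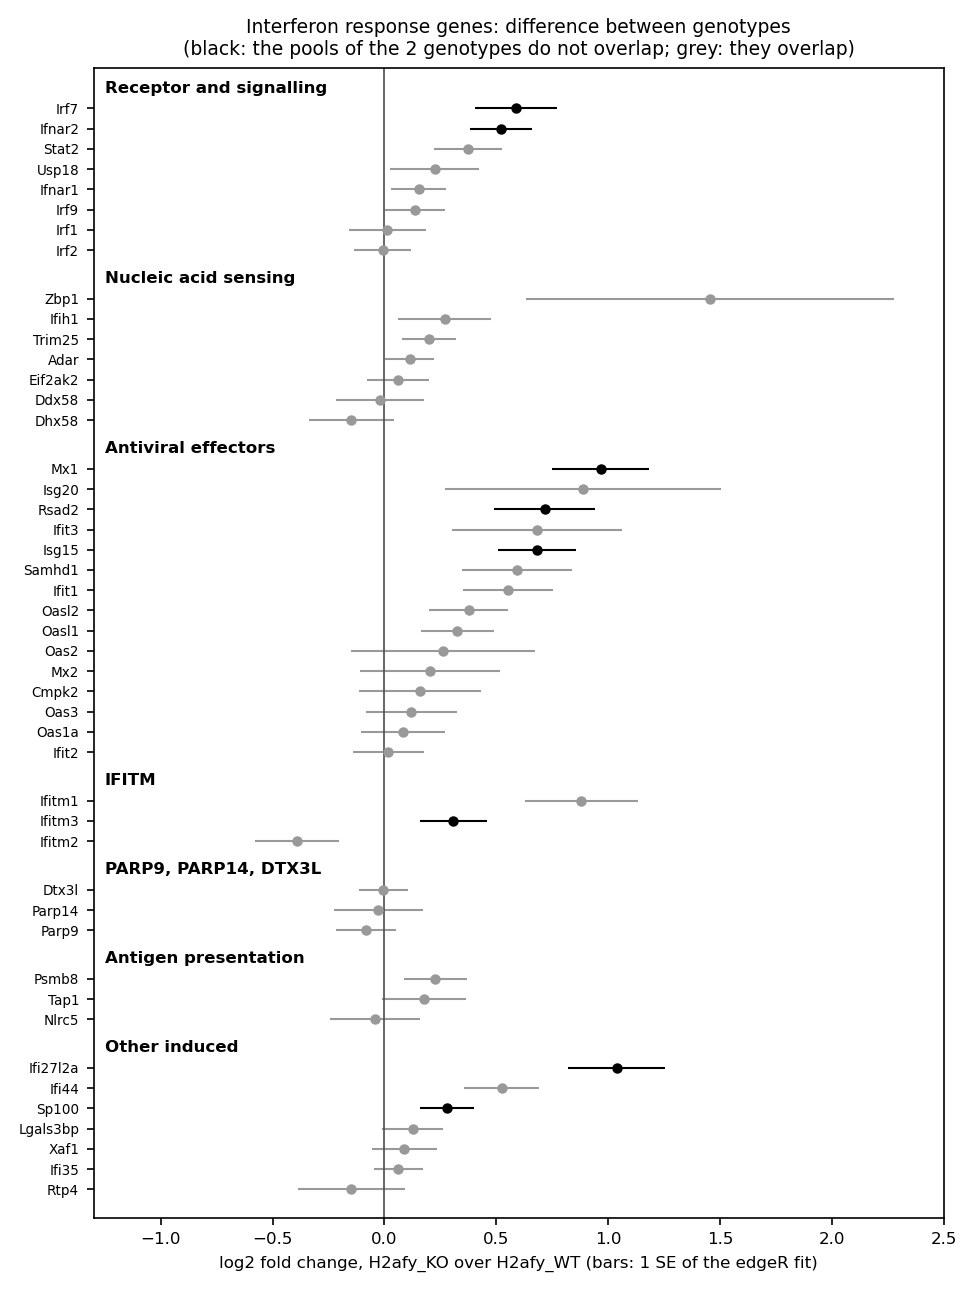
Log2 fold change of each of the 46 tested members (x axis, H2afy_KO over H2afy_WT, bars 1 SE of the edgeR fit), grouped by role; black marks the 8 members whose pools did not overlap between genotypes. All 15 antiviral effectors lie to the right of 0, Ifit2 by 0.02, and PARP9, PARP14 and DTX3L lie at -0.08, -0.03 and -0.01.

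Among the 8 genes of the receptor and its signal, 7 had a positive log2 fold change and the median was 0.19. Ifnar2 (ENSMUSG00000022971, chromosome 16, 91373028 to 91419696, plus strand, NCBIM37), the receptor subunit that holds interferon with high affinity, had 63.5, 54.1, 61.7 and 59.2 CPM across H2afy_KO pools 1 to 4, against 39.9, 50.8, 39.7 and 35.6 CPM across H2afy_WT pools 1 to 4. The H2afy_KO pools were tightly grouped and all lay above the highest H2afy_WT pool, the second. H2afy_KO averaged 59.6 ± 4.09 CPM (SD, n = 4) and H2afy_WT averaged 41.5 ± 6.52 CPM (SD, n = 4), and the log2 fold change was 0.52 (SE 0.14, edgeR adjusted p = 0.426). Of its exon bases, 14.6% are shared with Il10rb on the same strand, so reads that fall there cannot be told apart. Ifnar1, the other subunit, had 69.5 to 87.8 CPM in H2afy_KO and 64.5 to 80.4 CPM in H2afy_WT, which overlap, with a log2 fold change of 0.15 (SE 0.12, edgeR adjusted p = 0.810).

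Of the complex formed after receptor binding, Stat2 differed more between genotypes than Irf9 in these values, and the difference between them was not tested. Stat2 (ENSMUSG00000040033, chromosome 10, 127707629 to 127729905, plus strand) had 51.2, 57.6, 68.1 and 61.4 CPM across H2afy_KO pools 1 to 4, against 36.5, 48.5, 54.2 and 44.8 CPM across H2afy_WT pools 1 to 4. Each H2afy_KO pool lay above its same-numbered H2afy_WT pool, but H2afy_KO 1 lay below H2afy_WT 3. The log2 fold change was 0.37 (SE 0.15, edgeR adjusted p = 0.610), and DESeq2 with the replicate block gave an adjusted p of 0.0387. Irf9, the DNA-binding part of that complex, had 201, 208, 152 and 170 CPM across H2afy_KO pools 1 to 4, against 148, 175, 171 and 172 CPM across H2afy_WT pools 1 to 4. H2afy_KO 1 and 2 lay above all H2afy_WT pools and H2afy_KO 3 and 4 among them, with a log2 fold change of 0.14 (SE 0.13, edgeR adjusted p = 0.851).

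Irf7, the factor that amplifies interferon-alpha transcription and is itself induced by interferon, had 56.1, 76.3, 59.7 and 81.7 CPM across H2afy_KO pools 1 to 4, against 32.8, 47.5, 46.0 and 55.8 CPM across H2afy_WT pools 1 to 4 (ENSMUSG00000025498, chromosome 7, 148448605 to 148452380, minus strand). The groups were separate by a narrow margin, between H2afy_KO 1 and H2afy_WT 4, and every same-numbered pair had the higher value in H2afy_KO. The log2 fold change was 0.59 (SE 0.18, edgeR adjusted p = 0.473), and DESeq2 with the block gave an adjusted p of 0.000424. Of the remaining regulators, Usp18, a protease that removes ISG15 from proteins and dampens the receptor, was at 0.22 (SE 0.20). Irf1 and Irf2, which act on overlapping promoter elements as activator and mainly as repressor, were at 0.01 (SE 0.17) and -0.01 (SE 0.13). The pools of all 3 overlapped.

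The 7 sensors of nucleic acid and their partners showed no common direction: 5 log2 fold changes were positive, 2 were negative, the median was 0.11, and none had separate groups or an unadjusted edgeR p under 0.05. The RNA helicases Ifih1 (MDA5), Ddx58 (RIG-I) and Dhx58 (LGP2) were at 0.27 (SE 0.21), -0.02 (SE 0.20) and -0.15 (SE 0.19). Trim25, a ubiquitin ligase that acts on RIG-I, was at 0.20 (SE 0.12). Eif2ak2, the kinase PKR, and Adar, which edits double-stranded RNA, were at 0.06 (SE 0.14) and 0.11 (SE 0.11).

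Zbp1, a sensor of Z-form nucleic acid, had the highest log2 fold change of any member, 1.46, and also the widest error (SE 0.82, edgeR adjusted p = 0.729); it was picked out after its values were seen. Its levels were 3.46, 8.09, 51.6 and 22.9 CPM across H2afy_KO pools 1 to 4, against 4.93, 4.79, 10.97 and 10.6 CPM across H2afy_WT pools 1 to 4. H2afy_KO 3 and 4 were far above the rest, while H2afy_KO 1 was the lowest of all 8 pools. The order of Zbp1 over the 8 pools was exactly the order of their immunoglobulin share, which held for 1 of the 46 members and for 44 of all 13722 tested genes. Without H2afy_KO 3 and 4 its log2 fold change was -0.43. Isg20, a 3′ exonuclease counted among the antiviral effectors and also picked out after its values were seen, behaved alike in these pools, with 11.9, 27.3, 94.8 and 51.9 CPM across H2afy_KO pools 1 to 4, against 20.7, 17.2, 39.1 and 23.4 CPM across H2afy_WT pools 1 to 4. H2afy_KO 3 and 4 were again the highest, and the log2 fold change was 0.89 (SE 0.62) with them and -0.36 without them. The summed level of mature B and plasma cell markers moved with these genes. It was 222, 5562, 20476 and 17492 CPM across H2afy_KO pools 1 to 4, against 2623, 1010, 9334 and 6520 CPM across H2afy_WT pools 1 to 4. A single marker reached 18967 CPM, which only the H2afy_KO 3 sum exceeds, so that sum was mostly 1 gene. Of the 9 markers, 8 had a positive log2 fold change. The other was at -1.78 and was separate and lower in H2afy_KO (2.35% of all tested genes). The part of this list in the Zbp1 and Isg20 values was not tested. With the log2 immunoglobulin share as a covariate, the log2 fold changes were 0.70 (SE 0.38) for Zbp1, 0.37 (SE 0.27) for Isg20, 0.90 (SE 0.21) for Mx1 and 0.55 (SE 0.18) for Irf7.

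**Figure D3:**
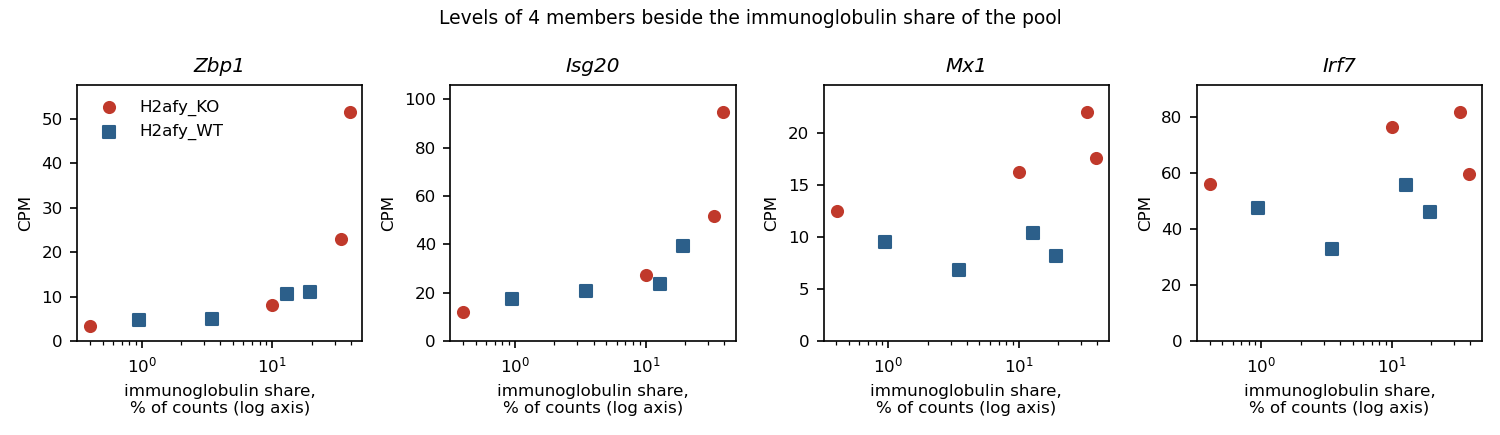
CPM of Zbp1, Isg20, Mx1 and Irf7 (y axes, from 0) beside the immunoglobulin share of counts in each pool (x axes, log scale, 0.402% to 39.0%); circles are H2afy_KO and squares H2afy_WT pools. Zbp1 goes from 3.46 to 51.6 CPM in the order of the share, while in Mx1 and Irf7 all H2afy_KO points lie above all H2afy_WT points.

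Among the antiviral effectors the log2 fold change was positive in all 15, the median was 0.38, and the range went from 0.02 for Ifit2 to 0.97 for Mx1; all 15 were also positive with RLE and upper-quartile scaling, 14 with limma-voom and with the immunoglobulin covariate, and 13 to 15 when pools were left out. Of the 15, 5 had an unadjusted edgeR p under 0.05 with a higher level (3.88% of all tested genes) and 3 had separate groups (2.18%). Mx1 (ENSMUSG00000000386, chromosome 16, 97668642 to 97684514, minus strand), a dynamin-like GTPase that restricts influenza viruses, had 12.5, 16.2, 17.6 and 22.0 CPM across H2afy_KO pools 1 to 4, against 6.85, 9.51, 8.20 and 10.3 CPM across H2afy_WT pools 1 to 4. The lowest H2afy_KO pool, the first, lay above the highest H2afy_WT pool, the fourth. H2afy_KO averaged 17.1 ± 3.91 CPM (SD, n = 4) and H2afy_WT averaged 8.73 ± 1.52 CPM (SD, n = 4), a fold of 1.95 and a log2 fold change of 0.97 (SE 0.22, edgeR adjusted p = 0.365; DESeq2 adjusted p = 0.0110). Mx2, its neighbour in the genome, was at 0.20 (SE 0.31), with 6.62 to 8.48 CPM in H2afy_KO and 2.84 to 8.83 CPM in H2afy_WT.

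Isg15 (ENSMUSG00000035692, chromosome 4, 155573533 to 155574927, minus strand), a ubiquitin-like modifier, had 21.2, 20.7, 14.8 and 18.4 CPM across H2afy_KO pools 1 to 4, against 9.99, 12.0, 13.1 and 11.7 CPM across H2afy_WT pools 1 to 4. The groups were separate, with H2afy_KO 3 closest to the H2afy_WT pools. The log2 fold change was 0.68 (SE 0.18, edgeR adjusted p = 0.426), and the DESeq2 adjusted p was 0.0428. Rsad2 (ENSMUSG00000020641, chromosome 12, 27127618 to 27141317, minus strand), which encodes viperin, an enzyme that makes a chain-terminating nucleotide, was low, at 8.79, 9.79, 11.9 and 7.26 CPM across H2afy_KO pools 1 to 4, against 4.52, 6.53, 6.11 and 5.79 CPM across H2afy_WT pools 1 to 4. All H2afy_KO pools lay above all H2afy_WT pools, with a log2 fold change of 0.72 (SE 0.23, edgeR adjusted p = 0.473). Cmpk2, a nucleotide kinase that lies beside Rsad2, was at 0.16 (SE 0.27).

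The IFIT genes, which encode proteins that bind viral RNA, were not uniform. Ifit1 (ENSMUSG00000034459, chromosome 19, 34715361 to 34724499, plus strand) had 17.8, 18.6, 19.7 and 14.8 CPM across H2afy_KO pools 1 to 4, against 9.08, 15.8, 12.9 and 10.6 CPM across H2afy_WT pools 1 to 4, and the overlap came from H2afy_KO 4 and H2afy_WT 2. Its log2 fold change was 0.55 (SE 0.20, edgeR adjusted p = 0.537). Ifit3 was low, at 1.82 to 5.48 CPM in H2afy_KO and 1.77 to 3.26 CPM in H2afy_WT, with a log2 fold change of 0.68 (SE 0.38). Ifit2 had 35.6 to 42.5 CPM in H2afy_KO and 28.2 to 43.1 CPM in H2afy_WT, and its log2 fold change was 0.02 (SE 0.16). Their near copies were low: Ifit3b had 0.425 to 3.57 CPM and Ifit1bl1 0.381 to 6.76 CPM over the 8 pools. Ifit1bl1 had its higher values in H2afy_WT, opposite to Ifit1, with a log2 fold change of -1.85 (SE 0.59, edgeR adjusted p = 0.477).

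The OAS genes encode synthetases of the 2′-5′ oligoadenylates that activate RNase L, and the OASL proteins are relatives of them. Oasl2 and Oasl1 were at 0.38 (SE 0.18) and 0.33 (SE 0.16), and Oas2, Oas3 and Oas1a at 0.26 (SE 0.41), 0.12 (SE 0.20) and 0.08 (SE 0.19); the pools of all 5 overlapped. Oas2 varied widely within H2afy_KO, from 7.16 CPM in H2afy_KO 3 to 29.7 CPM in H2afy_KO 2. Oas1a had 24.5, 28.1, 15.2 and 23.5 CPM in H2afy_KO 1 to 4 and 19.2 to 23.1 CPM in H2afy_WT, so that H2afy_KO 3 was the lowest of all pools and the other H2afy_KO pools were the 3 highest. Its near copy Oas1g had 1.55 to 5.09 CPM. Samhd1 (ENSMUSG00000027639, chromosome 2, 156923265 to 156961001, minus strand), which degrades the nucleotides that reverse transcription needs, had 59.8, 73.2, 105 and 87.6 CPM across H2afy_KO pools 1 to 4, against 38.8, 41.2, 77.8 and 58.4 CPM across H2afy_WT pools 1 to 4. Each H2afy_KO pool lay above its same-numbered H2afy_WT pool, while H2afy_WT 3 lay above H2afy_KO 1 and 2. The log2 fold change was 0.59 (SE 0.24, edgeR adjusted p = 0.622), and the adjusted p was 8.28e-05 with DESeq2 and the block.

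**Figure D4:**
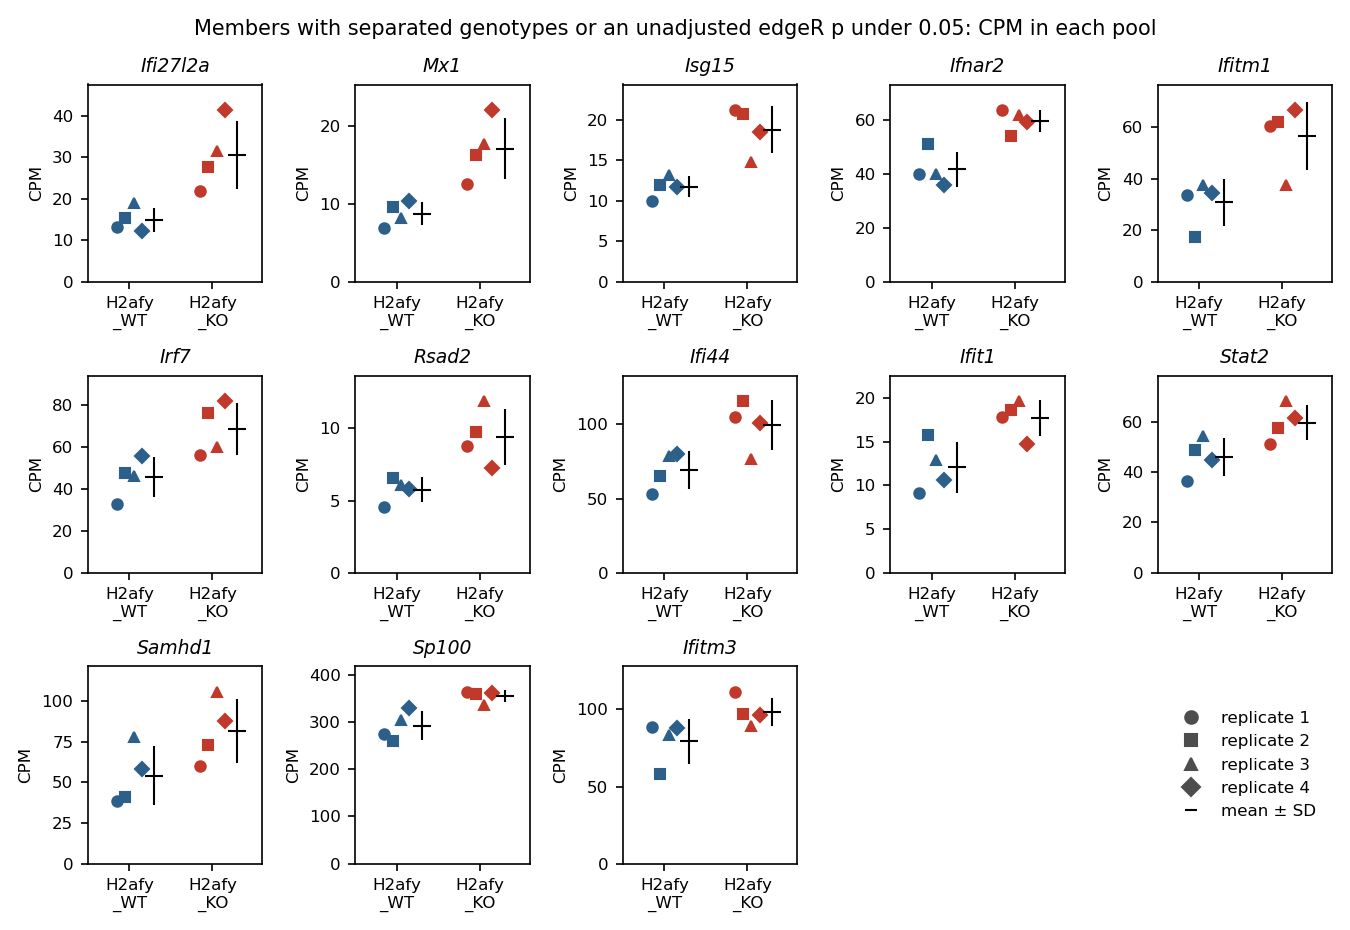
CPM (y axes, from 0) in each of the 8 pools for the 13 members with separate genotypes or an unadjusted edgeR p under 0.05; marker shape gives the replicate number and the bars the mean ± SD of 4 pools. In Mx1 the H2afy_KO pools run from 12.5 to 22.0 and the H2afy_WT pools from 6.85 to 10.3, while in Ifitm1 H2afy_KO 3 and H2afy_WT 3 are both at 37.4.

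The 3 IFITM genes, whose membrane proteins block virus entry at the cell surface or in endosomes, differed in direction. Ifitm1 (ENSMUSG00000025491, chromosome 7, 148153120 to 148155724, plus strand) had 60.5, 62.0, 37.4 and 66.6 CPM across H2afy_KO pools 1 to 4, against 33.8, 17.4, 37.4 and 34.6 CPM across H2afy_WT pools 1 to 4. Of the H2afy_KO pools 1, 2 and 4 lay well above the H2afy_WT pools, and H2afy_KO 3 sat at the level of H2afy_WT 3. The log2 fold change was 0.88 (SE 0.25, edgeR adjusted p = 0.467). Ifitm3 had 111, 96.7, 89.2 and 96.1 CPM across H2afy_KO pools 1 to 4, against 88.6, 57.8, 83.4 and 88.0 CPM across H2afy_WT pools 1 to 4, groups that are separate by a narrow margin, between H2afy_KO 3 and H2afy_WT 1. Its log2 fold change was 0.31 (SE 0.15, edgeR adjusted p = 0.682), and 0.18 without H2afy_WT 2.

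Ifitm2 went the other way and was the member with the lowest log2 fold change, at -0.39 (SE 0.19, edgeR adjusted p = 0.677); it was picked out after its values were seen. It had 203, 176, 120 and 144 CPM across H2afy_KO pools 1 to 4, against 256, 230, 184 and 170 CPM across H2afy_WT pools 1 to 4. In both groups pools 1 and 2 lay above pools 3 and 4, each H2afy_KO pool lay below its same-numbered H2afy_WT pool, and the groups overlap. DESeq2 with the replicate block gave an adjusted p of 0.0145. Ifitm2 also had the highest level per length of any member, with 247 CPM per kilobase of exon in H2afy_KO and 323 in H2afy_WT. Ifitm3 followed with 145 and 117, and Psmb8 with 125 and 107. Rsad2, among the lowest, had 2.18 and 1.33 CPM per kilobase. The IFITM genes resemble each other in sequence, and reads shared between them cannot be placed with certainty. Ifitm6, a related gene of the same cluster, had 0.952 to 3.76 CPM in H2afy_KO and 0.755 to 16.5 CPM in H2afy_WT, with its highest values in H2afy_WT 1 and 4.

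Parp9, Parp14 and Dtx3l lie side by side and encode ADP-ribosyltransferases and the ubiquitin ligase partner of PARP9. They were the role nearest to 0, with log2 fold changes of -0.08 (SE 0.13), -0.03 (SE 0.20) and -0.01 (SE 0.11). Dtx3l was among the steadiest members, at 97.1 to 106 CPM in H2afy_KO and 90.6 to 113 CPM in H2afy_WT. Parp9 and Dtx3l share 9.40% and 8.0% of their exon bases on opposite strands, and the kit does not mark strand.

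Of the antigen presentation genes, Psmb8, a catalytic subunit of the immunoproteasome, had 370, 299, 374 and 326 CPM across H2afy_KO pools 1 to 4, against 336, 303, 285 and 244 CPM across H2afy_WT pools 1 to 4. The groups overlap, and the log2 fold change was 0.23 (SE 0.14, edgeR adjusted p = 0.737). Tap1, the peptide transporter, and Nlrc5, the transactivator of MHC class I genes, were at 0.18 (SE 0.19) and -0.04 (SE 0.20). In both, H2afy_WT 2 was the highest of all 8 pools, with 158 CPM of Tap1 and 108 CPM of Nlrc5. Psmb9, the partner subunit of Psmb8, had 1 count over all 8 pools and was not tested. The annotation gives it 2 gene IDs that share 99.97% of exon bases, so reads that fall there cannot be assigned to 1 of them, and this count is no measure of its level.

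The remaining 7 induced genes had 6 positive log2 fold changes and a median of 0.13. Ifi27l2a (ENSMUSG00000079017, chromosome 12, 104680377 to 104681890, minus strand), a small membrane protein gene strongly induced by interferon, had 21.9, 27.6, 31.5 and 41.3 CPM across H2afy_KO pools 1 to 4, against 13.3, 15.2, 18.9 and 12.2 CPM across H2afy_WT pools 1 to 4. All H2afy_KO pools lay above all H2afy_WT pools. H2afy_KO averaged 30.6 ± 8.18 CPM (SD, n = 4) and H2afy_WT averaged 14.9 ± 2.94 CPM (SD, n = 4), a fold of 2.05 and a log2 fold change of 1.04 (SE 0.22). It had the smallest edgeR adjusted p of the members, 0.354, and the DESeq2 adjusted p was 0.00451. With no filter on low counts edgeR gave an adjusted p of 0.0385, the single member called there, beside 0.025% of genes, and 0 members were called lower, beside 0.0321%. Of its exon bases 46.4% are shared with Ifi27l2b on the same strand, which had 7 counts in all.

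Ifi44 (ENSMUSG00000028037), an interferon-induced cytosolic protein gene, had 105, 116, 76.4 and 101 CPM across H2afy_KO pools 1 to 4, against 52.9, 65.0, 78.9 and 80.2 CPM across H2afy_WT pools 1 to 4. H2afy_KO 3 lay among the H2afy_WT pools and the other H2afy_KO pools lay above them, with a log2 fold change of 0.52 (SE 0.17, edgeR adjusted p = 0.485). Sp100 (ENSMUSG00000026222), which encodes a component of nuclear bodies, had 363, 358, 335 and 361 CPM across H2afy_KO pools 1 to 4, against 274, 260, 304 and 329 CPM across H2afy_WT pools 1 to 4. Its H2afy_KO pools varied by less than its H2afy_WT pools, and the groups were separate by a narrow margin, between H2afy_KO 3 and H2afy_WT 4, with a log2 fold change of 0.28 (SE 0.12, edgeR adjusted p = 0.633). Lgals3bp, a secreted glycoprotein gene, Xaf1, a binding partner of XIAP, and Ifi35 were at 0.13 (SE 0.14), 0.09 (SE 0.15) and 0.06 (SE 0.11). Rtp4, a chaperone-like gene induced by interferon, was at -0.15 (SE 0.24), with 51.0 CPM in H2afy_KO 3 against 113 and 119 CPM in H2afy_KO 1 and 2.

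The members did not move as 1 block from pool to pool. Measured as each member's log2 CPM minus its mean over the H2afy_WT pools, the median over 46 members was 0.22, 0.30, 0.13 and 0.29 across H2afy_KO pools 1 to 4, against -0.15, 0.06, 0.08 and 0.02 across H2afy_WT pools 1 to 4. All H2afy_KO medians lay above all H2afy_WT medians, H2afy_KO 3 was the lowest of its group and H2afy_WT 1 the lowest of all. The number of members above every H2afy_WT pool was 23, 26, 16 and 24 in H2afy_KO 1 to 4, where 19.5%, 19.0%, 26.0% and 22.8% of all tested genes were. The number below every H2afy_WT pool was 3, 3, 8 and 3, where 21.4%, 20.1%, 25.2% and 21.5% of all tested genes were, so H2afy_KO 3 had the fewest members above and the most below. H2afy_KO 3 was the lowest H2afy_KO pool for 23 of the 46 members, and without it 16 members had separate groups (2.94% of all tested genes then did), among them all 8 of the full comparison. Without H2afy_KO 3 and 4, the pools with the highest immunoglobulin share, it was 20 members (7.06% of all tested genes), again with all 8 among them. Without H2afy_WT 1 and 4, which had the highest neutrophil sums, it was 9 members (7.42% of all tested genes), and Dhx58 was separate in the other direction, a setting chosen after seeing the data. Without H2afy_WT 1 the median log2 fold change of the members was 0.11.

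**Figure D5:**
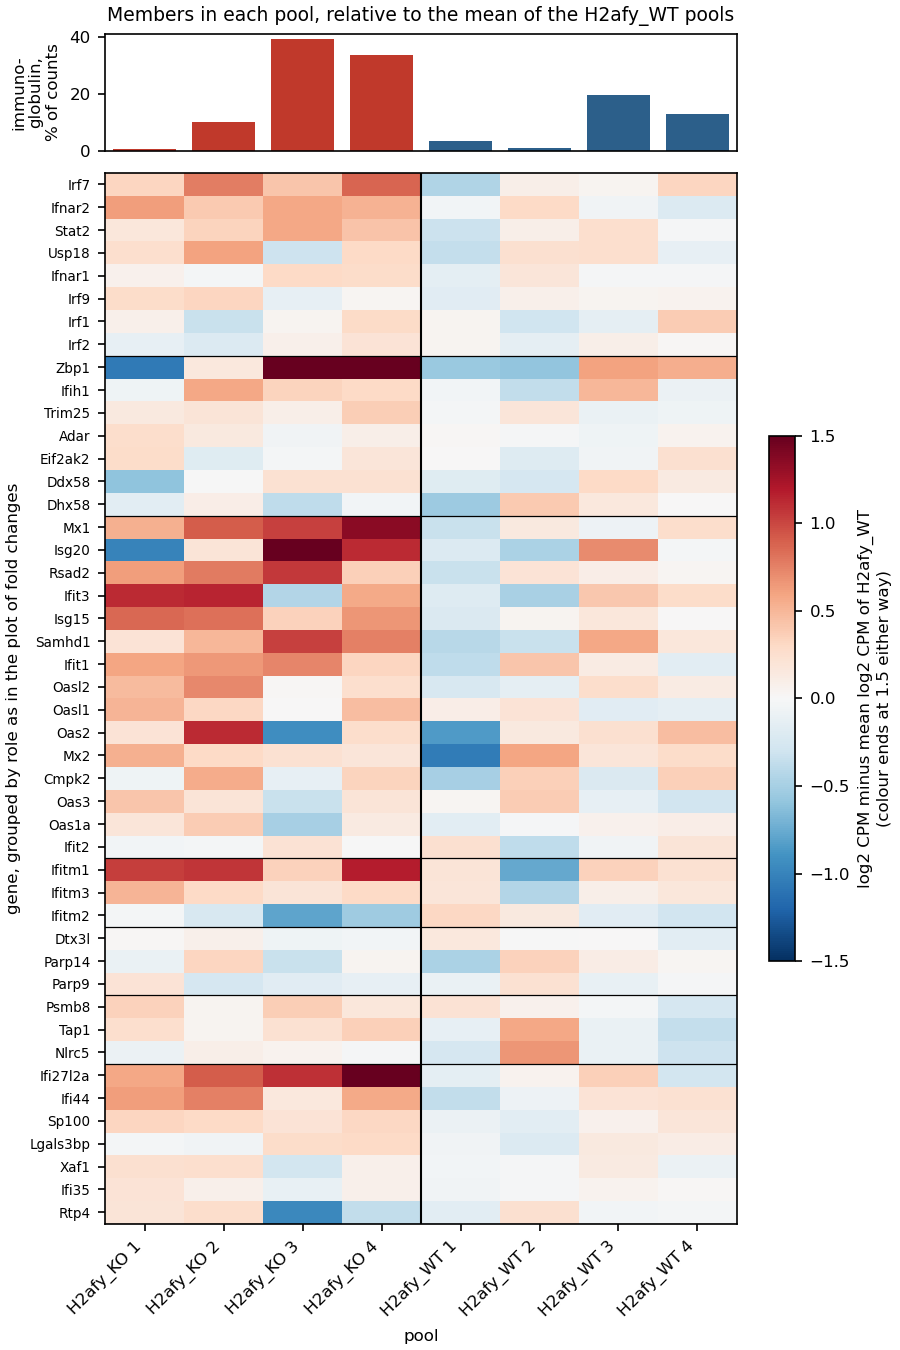
Log2 CPM of the 46 tested members minus their mean over the H2afy_WT pools (colour, ending at 1.5 either way), by pool (columns) and role (row blocks), with the immunoglobulin share of counts of each pool above. The H2afy_KO columns are mostly red, H2afy_KO 3 less so (median 0.13), and the Zbp1 and Isg20 rows are darkest in H2afy_KO 3 and 4.

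Plasmacytoid dendritic cells, which make large amounts of type I interferon, share early progenitors with B cells, and their markers were read beside the members. The log2 fold change was positive for all 10 markers, their median was 0.68, and none passed the edgeR test. An unadjusted edgeR p under 0.05 with a higher level was found for 4 of the 10 (3.88% of all tested genes). The 2 with separate groups were Irf8 and Cox6a2, both higher in H2afy_KO (2.18% of all tested genes). Cox6a2 had 181 to 230 CPM in H2afy_KO and 112 to 148 CPM in H2afy_WT (log2 fold change 0.61, SE 0.13, DESeq2 adjusted p = 0.00880), and Pacsin1 was at 1.70 (SE 0.49). The summed level of the 10 was 1273, 1102, 2454 and 1839 CPM across H2afy_KO pools 1 to 4, against 919, 844, 1105 and 1447 CPM across H2afy_WT pools 1 to 4, so the groups overlap and H2afy_KO 3, with the lowest member median of its group, had the highest sum. Much of that sum was Ly6c2, named after its values were seen. It had 14.1, 44.2, 983 and 410 CPM across H2afy_KO pools 1 to 4, against 84.2, 16.4, 104 and 267 CPM across H2afy_WT pools 1 to 4. Siglech, a surface marker of these cells, had 87.0 to 195 CPM in H2afy_KO and 54.3 to 193 CPM in H2afy_WT, and Klk1 was at or under 1.94 CPM in every pool. Of the 10 markers none is a member, and Irf8 and Bst2 are also in the pathway lists below. Monocyte and macrophage markers summed to 543 to 632 CPM in H2afy_KO and 360 to 879 CPM in H2afy_WT, with 8 of 10 log2 fold changes positive. The overlap rests on Lyz2, which was high in H2afy_WT 1 and 4: without it the sums were 440 to 520 CPM and 271 to 403 CPM, which do not overlap. Cd68, a lysosomal marker of macrophages, had 69.1 to 98.9 CPM in H2afy_KO and 22.4 to 39.2 CPM in H2afy_WT, and its log2 fold change was 1.45 (SE 0.21, edgeR adjusted p = 0.0579, and 0.00936 with the replicate block). Mpeg1, a macrophage gene, was also separate, at 0.57 (SE 0.16). These genes were named after their values were seen. The T and NK cell list summed to 186 to 376 CPM in H2afy_KO and 288 to 354 CPM in H2afy_WT, and its defining genes Cd3e and Cd3d were under 1 CPM in every pool. A single gene of this list reached 371 CPM, which only the H2afy_KO 1 sum exceeds, so that sum was mostly 1 gene. The part of these markers in the member values was not tested.

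The ligands themselves were nearly absent. The 21 interferon genes of all types that were looked up (the interferon-alpha genes, Ifnb1, Ifne, Ifnk, Ifnz, Ifng and the interferon-lambda genes among them) had 116 counts together over the 8 pools, each was under 1 CPM in every pool, and 8 had 0 counts. Most of these counts came from H2afy_KO 1, with 44, and H2afy_WT 4, with 33, while each other pool had 3 to 8. The highest level of a single gene was 0.984 CPM. Ifnb1, the gene of interferon-beta, had 0 counts in every pool, which allows up to 3 counts, or 0.0952 to 0.182 CPM depending on the pool. Such limits cover counting error only.

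Among 13 tested genes of other pathway receptors, kinases and regulators, 9 had a positive log2 fold change and 0 passed the edgeR test. The groups were separate in 3 of the 13, all higher in H2afy_KO (2.18% of all tested genes). Il10rb, the receptor chain shared by interleukin-10 and interferon-lambda and the neighbour that overlaps Ifnar2, was at 0.41 (SE 0.13), and Stat3, named here after its values were seen, at 0.32 (SE 0.15). Ptpn6, a phosphatase that restrains JAK signalling, was at 0.35 (SE 0.14) with overlapping groups. Of the receptor kinases, Tyk2 was at 0.37 (SE 0.19) and Jak1 at -0.18 (SE 0.19). The interferon-gamma receptor chains Ifngr1 and Ifngr2 were at -0.01 (SE 0.12) and -0.60 (SE 0.27), so they did not share the direction of Ifnar2 in these values.

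Of 18 tested genes upstream of interferon production, 12 had a positive log2 fold change, and the median was 0.04. Irf8, a factor of dendritic and B-lineage cells, had 318, 272, 355 and 353 CPM across H2afy_KO pools 1 to 4, against 122, 164, 180 and 174 CPM across H2afy_WT pools 1 to 4. Its groups were far apart, with a log2 fold change of 1.02 (SE 0.15, edgeR adjusted p = 0.0722). With the replicate block the adjusted p was 0.0420 in edgeR and 1.84e-11 in DESeq2, and without the block it was 1.42e-06 in DESeq2. Unc93b1, the chaperone of endosomal Toll-like receptors, was at 0.66 (SE 0.20), Tlr3 at 1.35 (SE 0.53) from levels of 0.679 to 5.83 CPM, and Irf3, which starts interferon-beta transcription, at 0.25 (SE 0.16). Their groups overlap.

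A further 46 interferon-induced genes outside the member list were looked up, of which 44 were tested; 32 had a positive log2 fold change, the median was 0.10 and 0 passed the edgeR test. Bst2, which encodes tetherin, was at 0.74 (SE 0.19, edgeR adjusted p = 0.420), with 69.6 to 114 CPM in H2afy_KO and 48.0 to 75.1 CPM in H2afy_WT. Tap2, the partner of Tap1, was at 0.70 (SE 0.24) and Phf11b at 0.65 (SE 0.18). The 2 genes with separate groups (4.55%, against 2.18% of all tested genes) were Phf11b and Trim30a, both higher in H2afy_KO. Trim30a was named after its values were seen. Over the receptor, upstream and induced lists with the ligands, 75 of 100 listed genes were tested. Separate groups with the higher level in H2afy_KO were found for 6 (8%, against 2.18% of all tested genes). With the lower level they were found for 0 (2.35% of all tested genes). An unadjusted edgeR p under 0.05 with a higher level was found for 12 of the 75 (16%, against 3.88% of all tested genes). With a lower level it was found for 0 (3.69% of all tested genes).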

How the data were processed

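Single reads of 50 bases were sequenced from 4 H2afy_KO and 4 H2afy_WT pools, with a low-input cDNA kit that keeps no strand information, per the labels' protocols. The submitters' processing notes name HISAT2 2.0.6 and mm9. Not given in the sources used here are the gene counter, its annotation and its strand setting. The values the authors deposited are unnormalized counts, 1 whole number per Ensembl gene and pool.

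Names came from GENCODE M1, which uses NCBIM37 (mm9), for 37205 of 37991 IDs; 786 stayed without a name. Symbols of 46 members matched a single ID, and Psmb9 has 2. Genotypes were compared by edgeR (4.0.16) with its quasi-likelihood test: robust fit, TMM scaling, filterByExpr at a minimum count of 10, and Benjamini-Hochberg adjusted p-values over 13722 genes, called under 0.05. The common spread (biological coefficient of variation) came to 0.390. CPM are per TMM-scaled library, and log2 CPM carry a prior count of 2. Other settings tried were DESeq2 (1.42.0), factors by RLE or upper quartile, no filter or one of 5 CPM in 4 samples, limma-voom (3.58.1) with sample weights, a replicate block under edgeR or DESeq2, immunoglobulin genes removed or their share as covariate, and pools left out. R 4.3.3 was used, and the fits were first tested on simulated data.

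No pair of pools agreed within sampling noise: chi-square per degree of freedom was at least 92.2 over 28 pairs. Replicate numbers 1 to 4 occur in both groups, and the labels do not explain them. The reported fit therefore did not use them. The replicate block and the counts over same-numbered pairs read the numbers as pairs, which is not established. Same-numbered pools deviated from their group means together across genes, at r = 0.19, 0.19, 0.36 and 0.41. For H2afy_KO 1 the correlation was higher with H2afy_WT 2, at 0.52, and for H2afy_KO 3 with H2afy_WT 4, at 0.45.

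The members, the other gene lists and the marker lists were chosen with earlier results of these data known. Full values are given for members with separate groups or an unadjusted p under 0.05 and for Ifnar1, Ifnar2, Stat2, Irf9 and Irf7. Of each other pathway list, the 3 genes with the smallest p and a few core genes are named; the result of 1 gene chosen by this rule is not reported here. Promoters came from RefSeq (GRCm38.p6), and their positions are not those of NCBIM37.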

Additional observations from a re-analysis of the deposited data

Results flagged for a closer look

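In 5 of 92 groups of 4 pools, 1 pool lay far from the other pools of its genotype, measured as its gap to the nearest pool over the whole range of the group and read against Dixon's critical value for 4 samples; chance marks about 1 in 20 groups. Irf9 was low in H2afy_WT 1, with 148 CPM against 171 in the nearest pool (0.861 of the range). Ifit2 was high in H2afy_KO 3, with 42.5 CPM against 36.4 (0.883). Sp100 was low in H2afy_KO 3, with 335 CPM against 358 (0.842). Ifitm3 was low in H2afy_WT 2, with 57.8 CPM against 83.4 (0.83), and Nlrc5 was high in the same pool, with 108 CPM against 63.8 (0.837).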

How the results depend on the processing

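The median log2 fold change of the members stayed positive in all 20 alternatives, from 0.11 to 0.25, which was also the range when 1 pool was left out at a time. Members called higher numbered 0 in the reported fit, 3 under DESeq2, 1 with no filter and 8 under DESeq2 with the replicate block, and members called lower 1 under that block; both were 0 in the other alternatives, those that left out a pool included. Over all genes, the number called higher was 0 in the reported fit, 47 under DESeq2, 1 with upper-quartile factors, 7 with no filter, 1 with limma-voom, 4 with the replicate block in edgeR, 268 with DESeq2 and the block, and 1 with the immunoglobulin share as covariate. The number called lower was 0, and in the same order 71, 4, 9, 3, 11, 252 and 2, with 2 under a filter of 5 CPM in 4 samples, 3 without immunoglobulin genes, and 0 to 1 when 1 pool was left out (1 without H2afy_KO 4). The block changed no member call in edgeR. H2afy was at -0.45 with an adjusted p of 0.000226 under DESeq2 with the block. Members separate and higher in H2afy_KO numbered 8, 20 without H2afy_KO 3 and 4, and 7 to 16 with 1 pool left out (16 without H2afy_KO 3). Members separate and lower numbered 0, 0 to 1 with 1 pool left out (Parp9 without H2afy_KO 1), and 1 without H2afy_WT 1 and 4 (Dhx58), an alternative chosen after seeing the data. Sp100 overlapped with upper-quartile factors, and Ifitm3 with upper-quartile factors, with no filter and without H2afy_WT 2. Irf7 overlapped with the filter of 5 CPM in 4 samples. It also overlapped when H2afy_KO 2, H2afy_WT 1 or H2afy_WT 2 was left out. Zbp1 turned to -0.43 and Isg20 to -0.36 without H2afy_KO 3 and 4; the cause was not tested. Depth limits the low members most: Ifit3 had 30 to 169 counts a pool and Mx2 84 to 267.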
